A study of Macaca mulatta with 24 samples.

Results

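The transcripts described here encode 10 proteins of the regulated secretory pathway in the nucleus accumbens core: the peptide precursors TAC1, CARTPT and NTS, the granins CHGA, CHGB, SCG2, SCG3 and VGF, and the prohormone convertases PCSK1 and PCSK2. They were chosen by name, as neuropeptide and secretory granule genes other than the opioid peptides, and all 10 were found among the 17208 gene symbols of the expression table. Tissue came from 24 unrelated adult male rhesus macaques of 4 cohorts, 1 library per animal. Ethanol drinkers were induced by schedule-induced polydipsia and then had 12 months of open access to 4% (w/v) ethanol for 22 h per day. Tissue was taken with no abstinence imposed. The controls (n = 8, cohorts 5, 7a and 7b) went through the same procedures in the same rooms with water at both spouts and a maltose dextrin solution to match calories. The LD* group (n = 8, cohorts 4, 7a and 7b) held the lower drinkers, with a daily intake of 0.47 to 2.07 g/kg. The HD* group (n = 8, cohorts 5 and 7a) held the heavy drinkers and was made up of 4 animals in the HD category (2.74 to 3.09 g/kg) and 4 in the very heavy or VHD category (3.09 to 3.78 g/kg). Each animal is named by its group and a number, and HD* 2, 3, 5 and 7 were HD while HD* 1, 4, 6 and 8 were VHD.

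Neuropeptides are cut from larger precursors inside dense-core vesicles. Granins help to form these vesicles and are themselves sources of peptides, and PCSK1 and PCSK2 cleave precursors at paired basic residues. In the striatum, TAC1, the precursor of substance P, is made by the projection neurons of the direct pathway, while CARTPT and NTS give peptides (CART and neurotensin) that are known for their interplay with dopamine.

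Levels were read as TPM, a relative transcript abundance that allows for transcript length. Each library's values were scaled to the same total, so sequencing depth could not be read from the table and no counting error could be given. Control 6 stood apart, with a median correlation with the other libraries of 0.878 against 0.930 or more in the other 23 animals. Summed over 7 markers of striatal projection neurons (among them PPP1R1B, DRD1 and DRD2), its level was 400 TPM, against 1479 to 5500 TPM elsewhere. Markers of cortical projection neurons summed to between 1.42 and 834 TPM, highest in LD* 4 and next in Control 2 (395 TPM). In dissected tissue, fewer cells of a type and less RNA per cell cannot be told apart.

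SCG2 and TAC1 were the most abundant of the 10 transcripts. Over all animals the means were 760 ± 307 TPM for SCG2 and 537 ± 153 TPM for TAC1 (SD, n = 24), ranks 216 and 318 of the 17208 symbols. The other granins followed, with CHGB at 250 ± 90.0, SCG3 at 184 ± 34.7, VGF at 171 ± 82.7 and CHGA at 112 ± 66.0 TPM. CARTPT averaged 128 ± 141 TPM, PCSK2 101 ± 47.7 TPM, PCSK1 22.7 ± 13.4 TPM and NTS 10.4 ± 14.1 TPM. Some neighbours in this order were well separated: PCSK2 exceeded PCSK1 in 24 of 24 animals, TAC1 exceeded CHGB in 23 and SCG2 exceeded TAC1 in 20. Others were not, since SCG3 exceeded VGF in 14, CARTPT exceeded CHGA in 13 and CHGA exceeded PCSK2 in 12 of 24.

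Most of these transcripts varied widely between animals. The SD of log2(TPM + 1) was 1.45 for NTS, 1.36 for CARTPT and 1.04 for PCSK1, larger than in more than 99% of the 9197 genes that averaged 10 TPM or more, whose median was 0.31. The ratio of the highest to the lowest animal was 65.8 for NTS, 55.3 for CARTPT, 15.3 for PCSK1 and 11.1 for TAC1. SCG3, a granin that binds chromogranin A and membrane cholesterol in the granule, was the exception with a ratio of 1.91 and an SD of 0.25, above that of only 32.8% of those genes. NTS was low in most animals and high in a few: 5 of 24 were above 10 TPM, namely LD* 2 (42.8), Control 6 (42.2), HD* 4 (38.8), Control 5 (38.3) and Control 8 (14.4 TPM).

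**Figure D1:**
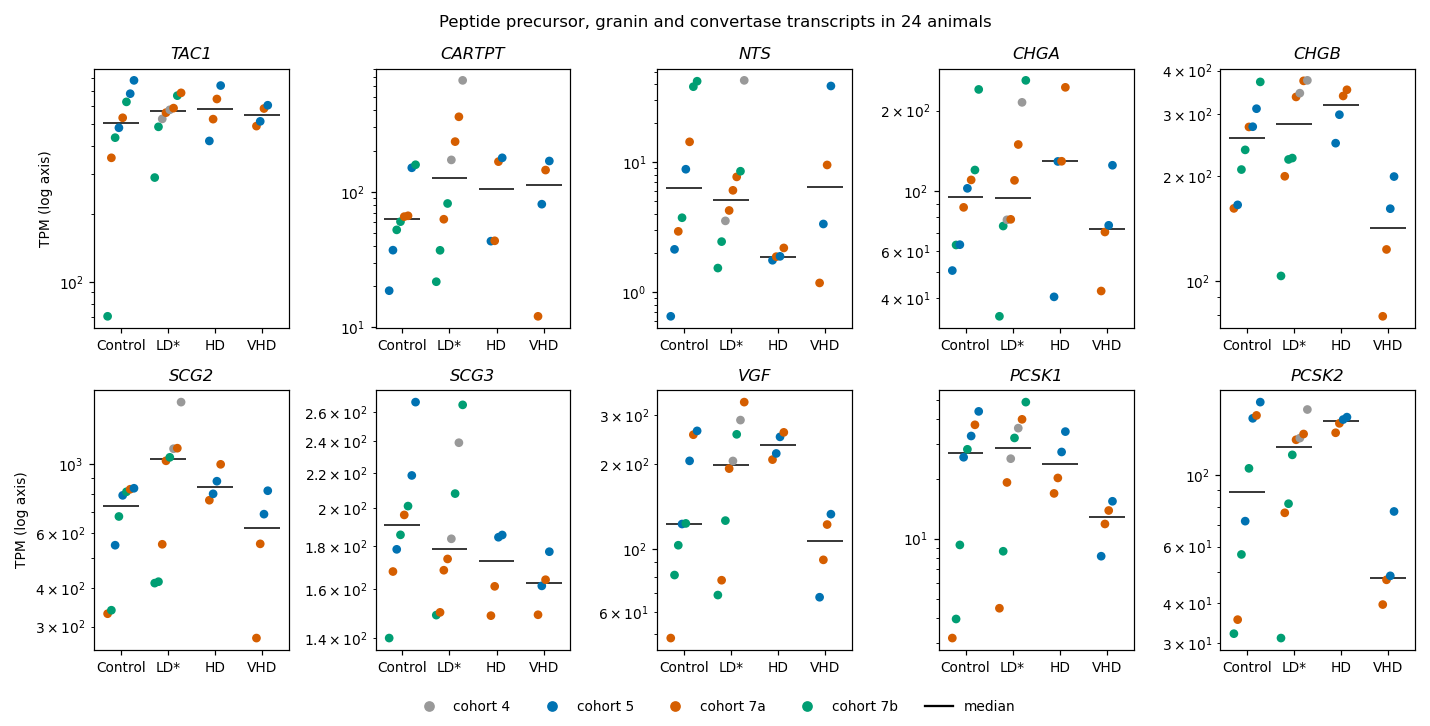
TPM (log axis) of the 10 transcripts in each of 24 animals, by group, with HD and VHD animals of the HD* group drawn apart; point colours give the cohort and the bar the group's median. In PCSK2, VGF, CHGB and PCSK1 every VHD point lies under every HD point, whereas controls and LD* animals spread over both.

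The first question was whether chronic drinking was accompanied by a different level of these transcripts. None of the 10 passed the test between HD* animals and controls. In limma on log2(TPM + 1) over all 9197 genes, 0 genes (0%) passed a Benjamini-Hochberg adjusted p of 0.05, and 357 (3.88%) had an unadjusted p under 0.05, none of them among the 10. The study itself reported genes under an FDR of 0.05 in this contrast with DESeq2. The count of 0 therefore describes this fit to TPM and does not show that the groups were alike.

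Of the peptide precursors, TAC1 ran from 70.4 through a median of 508 to 782 TPM in the controls, where HD* animals ran from 421 through 556 to 741 TPM. The HD* range lay inside that of the controls, and the lowest control was Control 6. The log2 difference, HD* minus controls, was 0.42 ± 0.32 (SE, adjusted p = 0.806 by limma), and 0.05 without Control 6. CARTPT ran from 18.6 through 62.8 to 158 TPM among controls and from 12.0 through 113 to 178 TPM among HD* animals, a log2 difference of 0.32 ± 0.63. NTS ran from 0.65 through 6.29 to 42.2 TPM among controls and from 1.18 through 2.04 to 38.8 TPM among HD* animals, a log2 difference of -0.80 ± 0.68. Both groups therefore held animals at either end of the NTS range.

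The ranges of the granins overlapped as well. For SCG3 the HD* animals (149 to 186 TPM) lay inside the control range (140 to 267 TPM). All of them were under the control median of 191 TPM. Within cohort 7a the SCG3 ranges did not overlap, at 149 to 164 TPM in 4 HD* animals and 168 to 196 TPM in 2 controls (exact permutation p = 0.133). In cohort 5 they overlapped. SCG3 had the smallest unadjusted p of the 10 (0.111), at 194 ± 37.7 TPM in the controls against 167 ± 14.5 TPM in HD* (SD, n = 8 each) with a log2 difference of -0.20 ± 0.12 (SE) and an adjusted p of 0.806 in limma. CHGA and CHGB, the chromogranins, differed by -0.04 ± 0.39 and -0.26 ± 0.29 on the log2 scale. SCG2, the precursor of secretoneurin, differed by 0.17 ± 0.30, and VGF, a precursor of several signalling peptides, by 0.22 ± 0.37. PCSK2 was at 96.9 ± 55.6 TPM in the controls against 99.4 ± 50.8 TPM in HD*, and PCSK1 at 23.0 ± 15.6 and 18.5 ± 8.63 TPM. The standard errors ran from 0.12 for SCG3 to 0.68 for NTS, so differences of that order could not be resolved. The direction of CHGA, PCSK1 and PCSK2 turned under other settings, so no sign is read from them.

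None of the 10 passed between low drinkers and controls either. Again 0 of 9197 genes (0%) passed in limma, 164 (1.78%) had an unadjusted p under 0.05 and none of the 10 was among them. CARTPT showed the largest difference, with LD* values from 21.7 through 127 to 665 TPM and a log2 difference of 0.92 ± 0.63 (SE, adjusted p = 1.00 in limma). LD* 2 (665 TPM), LD* 7 (358), LD* 8 (235) and LD* 1 (172 TPM), from cohorts 4 and 7a, exceeded every control, and the other 4 lay among them. Within cohort 7a the CARTPT difference was 1.39 (3 LD* animals, 2 controls), whereas in cohort 7b it was -0.96 (3 of each), and no controls were from cohort 4. SCG2 ran from 414 through 1038 to 1583 TPM in LD* animals and from 330 through 736 to 836 TPM in controls, a log2 difference of 0.43 ± 0.30. The 5 highest LD* values lay above all controls and the 3 lowest lay among them. The TAC1 difference was 0.35 ± 0.32, and -0.02 without Control 6.

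Between HD* and LD* animals, 9 of the 10 differences were negative, from -0.60 ± 0.63 for CARTPT to -0.14 ± 0.37 for VGF, and none had an unadjusted p under 0.05. Over all genes the count was 0 of 9197 (0%) by limma after adjustment and 67 (0.728%) before it, and the median log2 difference of all genes was itself -0.09. The HD* effect against controls was also compared between the 2 cohorts that held both groups, as cohort 7a minus cohort 5. No gene of 9197 (0%) passed in limma and 168 (1.83%) had an unadjusted p under 0.05. The 10 differences of effects ran from -1.75 ± 1.41 for NTS to 1.17 ± 0.93 for PCSK1, with a smallest unadjusted limma p of 0.145 for TAC1.

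**Figure D2:**
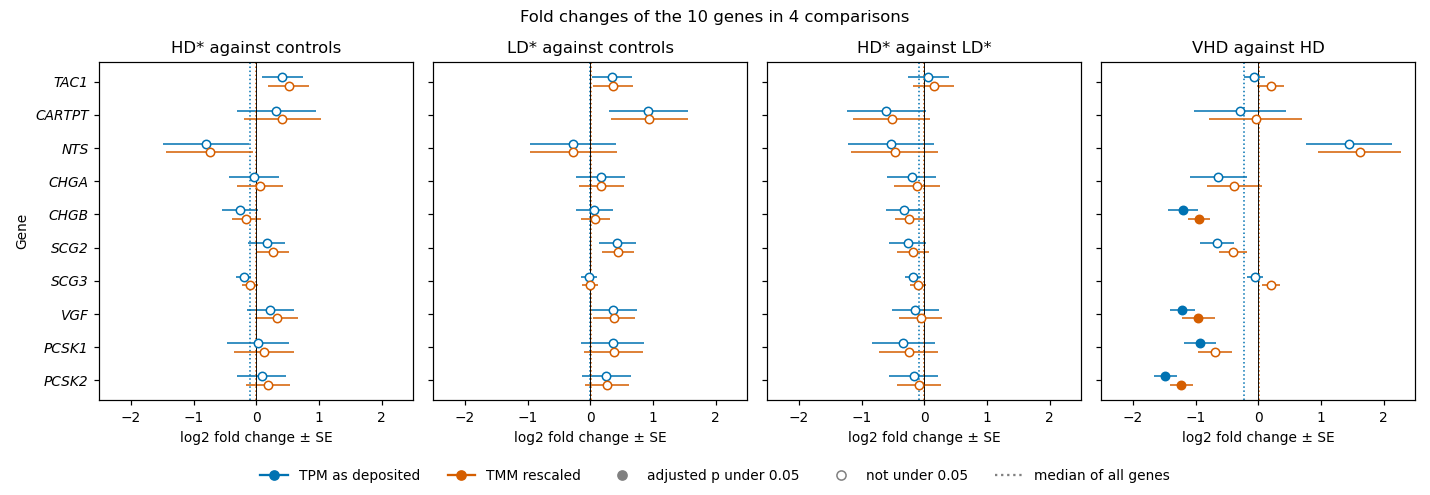
Log2 fold change ± SE of each transcript in 4 comparisons, from TPM as deposited and after TMM rescaling (trimmed mean of M values); filled points passed an adjusted p of 0.05 in limma and dotted lines mark the median of all genes. Filled points occur only in VHD against HD, at PCSK2, VGF, CHGB and, in TPM as deposited, PCSK1.

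The second question was whether the very heavy drinkers differed from the heavy drinkers within the HD* group. Here both convertases and 2 of the 5 granins fell, while none of the 3 peptide precursors passed the test. PCSK2 was 2.79-fold, VGF 2.31-fold, CHGB 2.29-fold and PCSK1 1.91-fold lower in VHD than in HD animals. That is 4 of 10, all lower, against a background in which 23.8% of all 9197 genes passed the same limma test (19.0% lower and 4.78% higher). A further transcript, SCG2, had an unadjusted p under 0.05, as did 39.7% of all genes with those that passed included. The median log2 difference was -0.65 over the 10 and -0.23 over all genes. After TMM rescaling, which moved the median of all genes by 0.25 to 0.02, the median over the 10 was -0.39 and 3 passed. That rescaling also changed the split of all genes that passed from 440 higher and 1746 lower to 1252 higher and 1140 lower.

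PCSK2, the convertase of late secretory granules, was at 152, 149, 145 and 136 TPM in the HD animals (HD* 2, 3, 5 and 7). In the VHD animals (HD* 1, 4, 6 and 8) it was at 77.2, 48.7, 39.6 and 47.3 TPM. The 4 HD values lay close together and every VHD value was below them. The log2 difference was -1.48 ± 0.18 (SE, adjusted p = 0.00268 in limma), and between -1.67 and -1.36 when any 1 animal was left out. PCSK1, which acts earlier in granule maturation, was at 27.3, 34.5, 20.2 and 16.9 TPM in the HD animals and at 15.4, 8.16, 13.9 and 11.9 TPM in the VHD animals. The groups did not overlap, but the lowest HD and highest VHD animals were close. The difference was -0.93 ± 0.25 (adjusted p = 0.0235), and it did not pass without HD* 2, 3 or 6 (adjusted p = 0.0659, 0.0808 and 0.0591) or after TMM rescaling (adjusted p = 0.0865).

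VGF was at 219, 250, 208 and 260 TPM in the HD animals and at 133, 67.5, 91.7 and 122 TPM in the VHD animals. No VHD animal reached the HD range, and the log2 difference was -1.21 ± 0.20 (adjusted p = 0.00402 in limma). CHGB, chromogranin B, was at 248, 299, 339 and 353 TPM in the HD animals and at 161, 199, 123 and 79.3 TPM in the VHD animals, again with no overlap. Its difference was -1.20 ± 0.24 (adjusted p = 0.00778). VGF, CHGB and PCSK2 passed in each fit that left out 1 animal and after TMM rescaling. An exact permutation test of 4 against 4 cannot give a two-sided p under 0.0286.

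The same 4 transcripts, and no other of the 10, had ranges that did not overlap between the categories, where 29.0% of all genes had such ranges in either direction, 23.0% with VHD lower and 6.03% with VHD higher. Within cohort 5 (2 animals of each category) the log2 differences, VHD minus HD, were -1.28 for PCSK2, -1.37 for PCSK1, -1.29 for VGF and -0.60 for CHGB. Within cohort 7a (also 2 of each) they were -1.68, -0.49, -1.13 and -1.79, and in both cohorts the VHD values of these 4 lay under the HD values. Set beside the controls, PCSK2 (32.2 to 169 TPM), VGF (48.4 to 263 TPM) and PCSK1 (3.17 to 43.6 TPM) had control ranges that took in both categories, and for PCSK2 and VGF the HD animals lay in the upper part of it. CHGB ran from 161 to 371 TPM in controls, and HD* 6 and HD* 8 (123 and 79.3 TPM) were clearly below all of them.

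The other granins did not pass. SCG2 was at 803, 881, 998 and 765 TPM in the HD animals and at 821, 690, 554 and 276 TPM in the VHD animals, so only HD* 1 reached the HD range. Its difference of -0.66 ± 0.27 (adjusted p = 0.0974 in limma) passed when HD* 1 or HD* 4 was left out. CHGA was at 40.5, 129, 129 and 244 TPM against 74.7, 125, 70.6 and 42.5 TPM, with HD* 2 the lowest and HD* 7 the highest of all 8. Its difference was -0.63 ± 0.45 (adjusted p = 0.314), and -1.12 with an adjusted p of 0.0455 without HD* 2. SCG3 was nearly level, at 170 ± 18.1 TPM in HD and 163 ± 11.6 TPM in VHD animals (SD, n = 4 each), and its log2 difference of -0.06 became 0.20 after TMM rescaling.

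Among the peptide precursors, TAC1 was at 741, 421, 526.3 and 646 TPM in the HD animals and at 606, 515, 490 and 587 TPM in the VHD animals. The VHD values lay inside the HD range, with a log2 difference of -0.06 ± 0.17 that became 0.20 after TMM rescaling. CARTPT was at 43.2, 178, 167 and 43.4 TPM against 169, 81.0, 145 and 12.0 TPM, and HD* 8 was the lowest of all 24 animals. NTS was at 1.76, 1.89, 1.87 and 2.19 TPM in the HD animals, a tight group, and at 3.35, 38.8, 9.54 and 1.18 TPM in the VHD animals. In this transcript 3 of 4 VHD animals were above all HD animals and HD* 8 was below them. The NTS difference was 1.44 ± 0.69 (adjusted p = 0.140 in limma), and 2.06 with an adjusted p of 0.0257 without HD* 8.

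Marker genes of cell types moved with this comparison. The 7 striatal projection neuron markers measured summed to 4532 to 5192 TPM in HD and 1479 to 3334 TPM in VHD animals, and 7 of 7 were lower in limma (5 of 7 after TMM rescaling). The 5 astrocyte markers, GFAP and AQP4 among them, summed to 1631 to 3016 TPM in HD and 3825 to 6102 TPM in VHD animals, with 1 of 5 higher (3 of 5 after rescaling). The 5 general neuronal markers summed to 5393 to 5995 TPM in HD and 2820 to 5068 TPM in VHD animals, with 2 of 5 lower (2 of 5 after rescaling). Oligodendrocyte, microglial, endothelial and cortical marker sums overlapped between the categories, though the microglial AIF1 (1 of 4) and the oligodendrocyte MBP (1 of 5) were higher in VHD animals, by 1.11 and 0.84 on the log2 scale (adjusted p = 0.00726 and 0.0361 in limma). The median correlation of a library with the others was 0.967 to 0.971 in the HD animals and in HD* 1, and 0.930 to 0.941 in the other 3 VHD animals, and the TMM factor was lowest in HD* 8 (0.706) and HD* 6 (0.824). The part of these values in the differences of PCSK2, VGF, CHGB and PCSK1 was not tested.

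Other genes of the same pathway were described in the same fit, from lists chosen with earlier results of these data known. Of 10 further peptide processing and dense-core vesicle genes with at least 10 TPM, 3 fell in VHD animals and 0 rose, beside 19.0% of all genes lower and 4.78% higher, and the median was -0.36 beside -0.23 over all genes. These were PTPRN, a granule membrane protein, at 463 ± 23.5 TPM in HD and 239 ± 43.2 TPM in VHD animals (log2 difference -0.97, adjusted p = 0.00318), SYT4, a vesicle synaptotagmin (-0.91, adjusted p = 0.0106), and PAM, which amidates peptides (-0.86, adjusted p = 0.0235), all by limma. All 3 also passed after TMM rescaling. Of 3 other convertases or processing carboxypeptidases, CPD (-0.89) and FURIN (-0.48) fell, the latter not after rescaling or when genes of at least 1 TPM were tested (adjusted p = 0.0540 in limma). Of 10 other neuropeptide precursors, PENK (-1.04) and PDYN (-0.80), the opioid precursors of striatal projection neurons, fell and none rose. This share is near the 19.0% of all genes, and the list's median of -0.20 was close to that of all genes. After rescaling 0 of 10 passed in limma, with 2 at an unadjusted p under 0.05.

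Among receptors for the peptides of TAC1 and NTS, 2 of 6 reached a mean of 10 TPM. SORT1, which binds neurotensin and also sorts proteins within the cell, was at 120 ± 14.3 TPM in HD and 62.4 ± 21.4 TPM in VHD animals (SD, n = 4 each) and fell by 0.99 on the log2 scale (adjusted p = 0.0107 in limma). NTSR2, the low-affinity neurotensin receptor, was at 123 ± 30.1 TPM in HD and 173 ± 18.0 TPM in VHD animals and rose by 0.51 (adjusted p = 0.0491). The neurokinin receptor TACR1, with 9.02 TPM on average over all animals, and the weaker TACR3, TACR2 and NTSR1, at 1.94 to 2.12 TPM, did not pass when genes of at least 1 TPM were tested. In that wider test NTSR2 did not pass either (adjusted p = 0.0636). In HD* animals against controls, 0 of the genes tested on these 4 lists passed in limma and 0 had an unadjusted p under 0.05.

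Across all 24 animals many of the 10 transcripts ran together or against each other. Of their 45 pairs, 19 had a Pearson r with an adjusted p under 0.05 (100000 permutations, two-sided), 14 positive and 5 negative. The share over all pairs of genes was not computed, so this count is not read as particular to the 10. PCSK2 and VGF were the closest pair (r = 0.88, rho = 0.83). PCSK2 also ran with SCG2 (r = 0.81, rho = 0.72), PCSK1 (r = 0.76, rho = 0.67) and CHGB (r = 0.68, rho = 0.61), and VGF with PCSK1 (r = 0.77, rho = 0.67) and SCG2 (r = 0.73, rho = 0.78). In all 6 of these pairs the adjusted permutation p was at most 0.0015 for r and 0.00691 for rho. The PCSK2 and VGF relation held within cohort 5 (r = 0.96), cohort 7a (r = 0.87) and cohort 7b (r = 0.77), and without the 2 animals farthest from the median of VGF it was 0.86. CHGB and PCSK2 ran together in cohorts 5 (r = 0.82) and 7a (r = 0.87) but not in 7b (r = 0.20), where Control 6 had the third highest CHGB value of all animals, 371 TPM, with 32.2 TPM of PCSK2.

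NTS ran against these genes, with r = -0.57 for PCSK2 (rho = -0.59), -0.57 for VGF (rho = -0.53) and -0.56 for PCSK1 (rho = -0.49). The relation with PCSK2 was negative in cohort 5 (r = -0.93), cohort 7a (r = -0.50) and cohort 7b (r = -0.70). TAC1 ran against NTS (r = -0.49, or -0.32 without Control 6) and CHGA (r = -0.49), neither passing by rank (adjusted permutation p of rho = 0.0553 for both), and the relation with CHGA had an r of 0.29 in cohort 7a and -0.24 without the 2 farthest animals. CHGA otherwise paired only with CHGB (r = 0.58), and SCG3 only with PCSK1 (r = 0.64), neither of which passed after TMM rescaling (r = 0.46 and 0.40). The first was -0.27 in cohort 5 and the second 0.11 in cohort 7a. CARTPT paired only with SCG2 (r = 0.60), a relation that was absent in cohort 5 (r = -0.23).

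**Figure D3:**
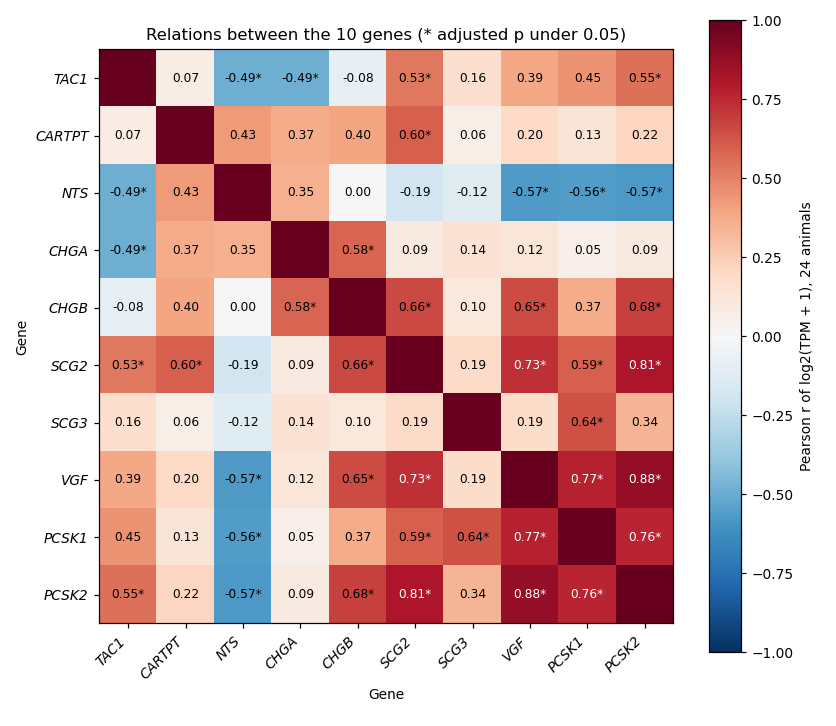
Pearson r of log2(TPM + 1) over 24 animals for each pair of the 10 transcripts, with red for positive and blue for negative values and a star for an adjusted p under 0.05. PCSK1, PCSK2, VGF and SCG2 form a block of positive values from 0.59 to 0.88, and NTS is blue against PCSK1, PCSK2, VGF and TAC1.

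The levels also followed the cell type markers over all animals, a relation looked at after the values were seen. With the striatal marker sum, r was 0.86 for TAC1 (rho = 0.78), 0.79 for PCSK2 (rho = 0.82), 0.68 for VGF (rho = 0.79), 0.63 for SCG2 (rho = 0.57) and 0.60 for PCSK1 (rho = 0.45), and for NTS it was -0.75 (rho = -0.71). For PCSK1 the rank relation did not pass (adjusted permutation p = 0.0657). Of 30 relations tested with 3 marker sums, 13 had an adjusted permutation p under 0.05, of which 6 were with the striatal, 6 with the astrocyte and 1 with the cortical list. The share over all genes was not computed here either. With the astrocyte sum r was -0.76 for VGF and PCSK2 and 0.67 for NTS. The TAC1 relation was 0.73 without Control 6 and between 0.55 and 0.98 within cohorts, and that of PCSK2 was 0.79 without it and between 0.70 and 0.99 within cohorts. With the striatal sum the other 4 did not pass: CARTPT (r = 0.02), SCG3 (r = 0.09), CHGA (r = -0.38) and CHGB (r = 0.19, or 0.51 without Control 6). SCG3 instead had an r of 0.55 with the cortical sum, but its rank relation did not pass (rho = 0.37, adjusted permutation p = 0.148). That r was 0.27 without the 2 animals of most extreme cortical sum, and 0.59, 0.55 and 0.70 within cohorts 5, 7a and 7b.

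**Figure D4:**
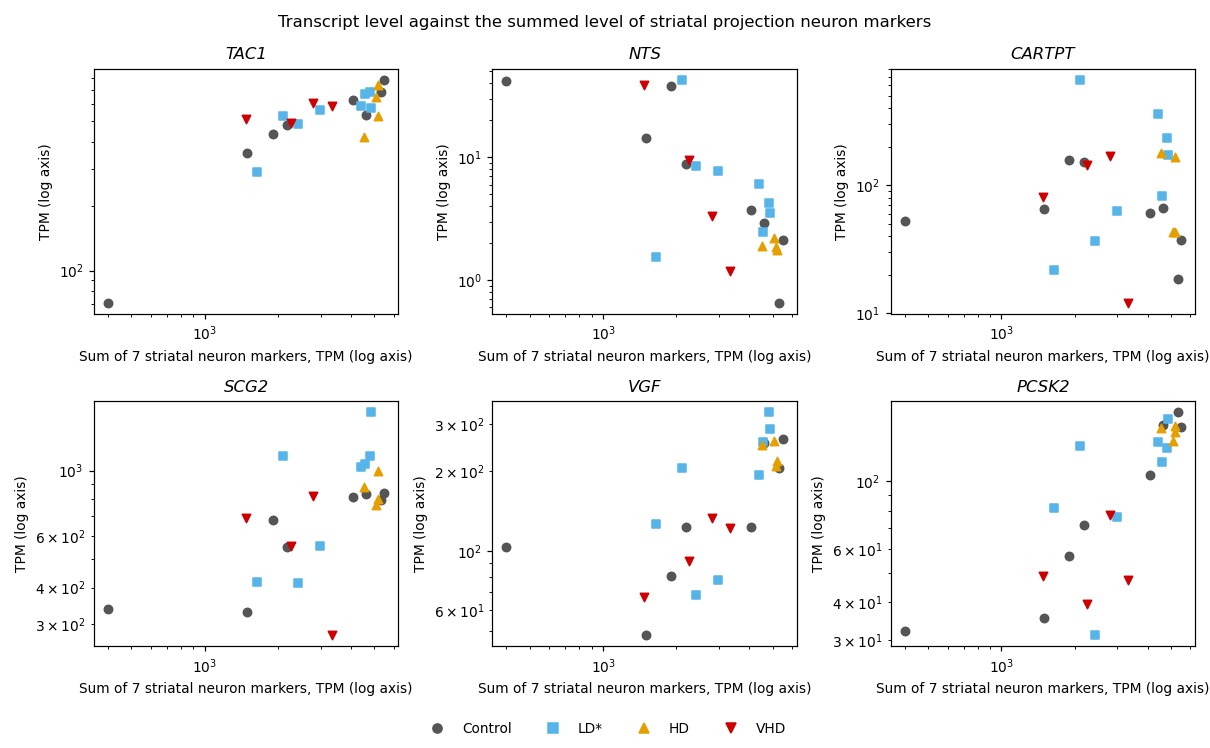
TPM of 6 transcripts against the summed TPM of 7 striatal projection neuron markers in 24 animals, both on log axes, with a symbol for each group. TAC1, PCSK2 and VGF are higher and NTS is lower where the marker sum is high. The VHD animals lie left of the HD animals, though their TAC1 values are inside the HD range, and the lone point at 400 TPM is Control 6.

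Daily ethanol intake was related to the 10 transcripts within LD* and within HD* animals, since intake itself separates the groups. None of the 20 relations passed after adjustment (smallest adjusted exact permutation p = 0.420 for Pearson's r and 0.285 for Spearman's rho). In LD* animals all 10 Pearson values were negative, from -0.13 for TAC1 to -0.64 for CARTPT (exact p = 0.0778, rho = -0.55), which was -0.17 without the 2 animals of most extreme intake. The sign was not stable for NTS, with r = -0.58 but rho = 0.17 and r = 0.66 without the 2 extreme animals, or for TAC1, with 0.02 after TMM rescaling. PCSK2 had the largest rank value, rho = -0.74 (r = -0.55, exact p = 0.0401 for rho before adjustment). In HD* animals 7 of 10 were negative. For PCSK2, VGF, CHGB and PCSK1 the 8 HD* animals fell into the 2 categories described above, with 4 in each, and a relation with intake inside a category was not tested.

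**Figure D5:**
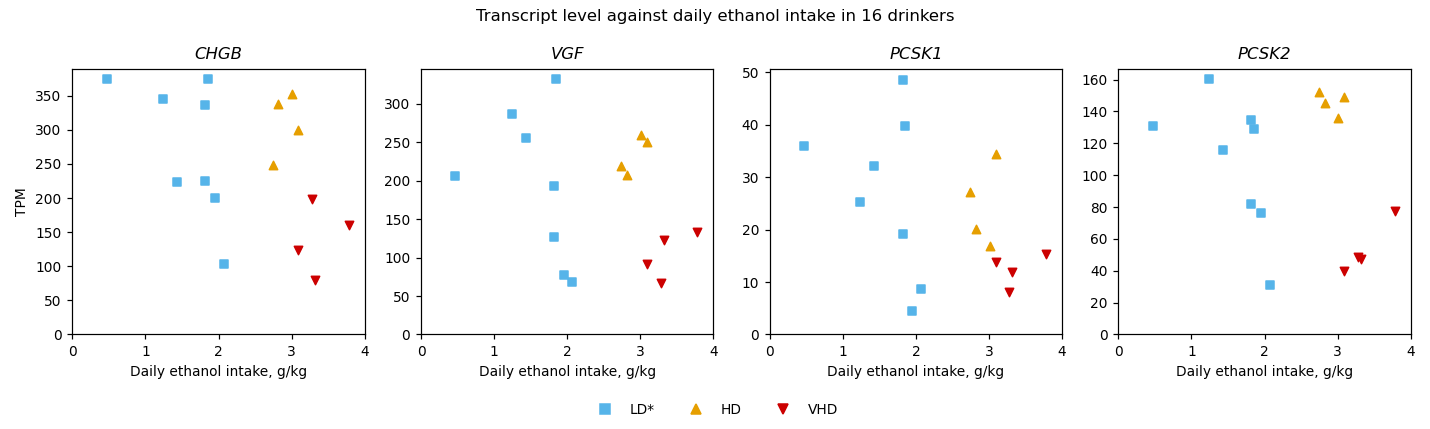
TPM of CHGB, VGF, PCSK1 and PCSK2 against daily ethanol intake (g/kg) in 16 drinkers, by category. HD and VHD animals have neighbouring intakes, 2.74 to 3.09 and 3.09 to 3.78 g/kg, and separate in the level of all 4 transcripts, while LD* animals spread over both levels.

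For each transcript the genes whose levels were most alike over the 24 animals were also listed, by Pearson r among the genes with at least 10 TPM, as a description. VGF was closest to PTPRN (r = 0.96) and SCG2 to PAM (r = 0.93), so that 2 granins had another granule gene as their nearest. Among the genes most like PCSK2 was ADCY9 (0.97), and CHGB was closest to EIF4G1, ACP2 and PRKACA (all 0.97). TAC1 was closest to LZTS1 (r = 0.93, or 0.76 without Control 6), with GABRA5 and LAMP5 next (both 0.92, or 0.63 and 0.79 without it), so their order rested on that library. CHGA was closest to TMEM132A (0.94), PCSK1 to ZDHHC23 (0.92), NTS to IGSF1 (0.90), SCG3 to CHRDL1 (0.85) and CARTPT to BTG1 (0.84). These values share libraries and dissections and carry no test.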

How the data were processed

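RNA-Seq was performed on nucleus accumbens core of 24 rhesus macaques with polyA-selected libraries. According to the submitters' notes, reads were checked with FastQC, aligned to the MacaM assembly with STAR 2.5.2b and summarised per gene with HTSeq 0.6.1p1, and the authors tested groups with DESeq2; read pairing and strand are described differently in the sources, so overlapping genes are uncertain. The deposited table holds TPM per gene symbol and animal (every column sums to the same total), as the authors made it. Depth per animal is unknown, and no count model could be used.

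Values were analysed as log2(TPM + 1), so changes of low genes are understated. limma 3.58.1 (R 4.3.3, trend) was fitted to the 9197 of 17208 symbols with a mean of at least 10 TPM, with Benjamini-Hochberg adjustment over all of them: 3 groups sharing 1 spread, the HD and VHD animals alone, and an interaction with cohort. Correlations used 100000 permutations (24 animals) or all pairings (8 animals) in scipy 1.17.1. The fit was tested on simulated data. Groups came from the category labels. Each library was 1 animal, so p-values measure the spread between animals.

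Named genes were the 10 transcripts, the 3 most alike genes of each (not all are printed, and 1 gene is not reported here), and up to 4 genes of each pathway list with the smallest p. The transcripts and lists were chosen with earlier results of these data known, as was the relation with marker sums. Symbols were matched to RefSeq (15246 of 17208, and 10 of 10 transcripts). Alternatives were other pseudocounts and filters, TMM rescaling (30% and 5% trims), cohort as a covariate, cohorts 5 and 7a alone, and each animal left out in turn.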

Additional observations from a re-analysis of the deposited data

Results flagged for a closer look

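Of 50 sets of values (10 transcripts in the 3 groups and in the HD and VHD categories), 4 held an animal far from the rest of its group by Dixon's test. Chance alone flags about 1 in 20 separate sets of normally distributed values. The values here were untransformed TPM, and the HD and VHD sets were parts of the HD* sets, so that rate need not hold. NTS in LD* 2 was at 42.8 TPM, where the next LD* animal was at 8.54 TPM. NTS in HD* 4, a VHD animal, was at 38.8 TPM, with the next HD* animal at 9.54 TPM. CHGA in Control 6 was at 240 TPM, with the next control at 120 TPM, and this was the library with the lowest striatal marker sum. CHGA in HD* 7, an HD animal, was at 244 TPM, with the next HD* animal at 129 TPM.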

How the results depend on the processing

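No paired analysis was possible because the groups held different, unrelated animals with 1 library each. PCSK2, VGF and CHGB in VHD against HD kept direction and call under every alternative run for that comparison. PCSK1 did not pass after TMM rescaling (-0.69), with no filter on low values (-0.93, adjusted p = 0.0713) or without HD* 2, 3 or 6. Genes that passed there numbered 1408 with no filter and 739 to 4094 with 1 animal left out, lowest without HD* 6 and highest without HD* 4 (1387 without HD* 2, 904 without HD* 3, 873 without HD* 5, 1047 without HD* 7). TMM rescaling also turned TAC1 (0.20) and SCG3 (0.20) there, CHGA in HD* against controls (0.060) and CHGB in the cohort difference (0.0027). With cohort as a covariate, HD* against controls turned for CHGA (0.038), PCSK1 (-0.085) and PCSK2 (-0.20), LD* against controls for CHGA (-0.11), CHGB (-0.048) and SCG3 (0.017), and HD* against LD* for TAC1 (-0.38), NTS (0.35) and CHGA (0.15). In cohorts 5 and 7a alone, HD* against controls gave 0.16 for CHGA, -0.28 for PCSK1 and -0.16 for PCSK2, and a pseudocount of 8 gave -0.079 for PCSK1. With 1 animal left out, signs turned in HD* against controls for CHGA (-0.24 to 0.16), PCSK1 (-0.27 to 0.22) and PCSK2 (-0.10 to 0.25), in LD* against controls for TAC1 (-0.016 to 0.48), NTS (-0.66 to 0.062), CHGA (-0.021 to 0.39), CHGB (-0.016 to 0.25) and SCG3 (-0.092 to 0.047), in HD* against LD* for TAC1 (-0.058 to 0.13) and VGF (-0.32 to 0.026), and in VHD against HD for TAC1 (-0.21 to 0.064) and CARTPT (-0.70 to 0.53). None of the turned values had passed, and the cause was not tested. Depth was unknown, so its effect could not be assessed.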

Other observations

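Below the 10 TPM level, POMC, the precursor of melanocortins and beta-endorphin, was higher in VHD (8.35 ± 3.09 TPM) than in HD animals (2.99 ± 1.83 TPM, SD, n = 4 each), by 1.26 on the log2 scale with an adjusted p of 0.0326 in limma over genes of at least 1 TPM. PCSK6, another proprotein convertase, was at 4.60 ± 1.60 TPM in VHD and 8.94 ± 1.39 TPM in HD animals and fell by 0.86 in that wider test (adjusted p = 0.0324). GAL, the galanin precursor, averaged 15.1 ± 26.8 TPM among controls and 2.61 ± 2.89 TPM among HD* animals (SD, n = 8 each), a log2 difference of -1.02 with an adjusted p of 0.706. CPE, the carboxypeptidase that trims peptides after the convertases, averaged 2044 TPM over all animals, above every one of the 10 transcripts.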
